A study of Mus musculus with 6 samples.

Results

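The genes described here encode the major histocompatibility complex (MHC) class I presentation machinery: the heavy chains *H2-K1* and *H2-D1*, the light chain *B2m*, the peptide transporter subunits *Tap1* and *Tap2*, the loading factor *Tapbp*, the immunoproteasome subunits *Psmb8*, *Psmb9* and *Psmb10*, and the class I regulator *Nlrc5*. They were chosen by symbol, and all 10 were found among the 24499 genes of the count table. RNA was sequenced from induced germinal center B cells (iGCBs) of cKO and control mice, in 3 cKO and 3 control libraries. The paper calls them biological replicates, and the sample titles do not say how many mice each library came from. cKO mice carried *Cγ1* Cre together with floxed *Eif3e* (fl/fl) and the *Rosa26-YFP* LSL reporter, and the labels call the other genotype control, with library names that read cgWT. The study elsewhere describes its YFP control mice as carrying the Cre and the reporter without floxed *Eif3e*. Naïve splenic B cells were cultured for 3 days on 40LB feeder cells irradiated with 120 Gy, with 1 ng/ml of the cytokine IL-4, and YFP+ cells were sorted. 40LB cells are BALB/c fibroblasts that express CD40L and BAFF, which stand in for T cell help. *Cγ1* Cre is driven by transcription of the IgG1 constant region, so YFP marks the cells in which the recombinase had acted, in both genotypes. The age of the mice is not given in the sources used here.

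Class I molecules display short peptides from inside the cell to CD8+ T cells. The proteasome cuts proteins into peptides, TAP pumps them into the endoplasmic reticulum, and tapasin and its partners load them onto heavy chains bound to β2-microglobulin. Interferons induce the immunoproteasome subunits, which take the place of the catalytic subunits of the standard proteasome, and NLRC5 activates class I promoters through a DNA-bound complex of RFX, CREB/ATF and NF-Y factors.

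The upstream sequences of these genes are shown because class I genes are classically controlled by short elements near the start of transcription. RefSeq promoter windows on GRCm38.p6, reaching from 250 bases before the start to 50 after it, were found for 8 of the 10 genes, all but *Nlrc5* and *Tap2*. In the lines below, read 5′ to 3′ on the strand of the gene, capitals mark matches on either strand to the searched letters: a κB-like element (GGGNNTTNCC), an interferon response core (GAAANNGAAA) or the overlapping shorter form (AANTGAAA), the TGACG core of the X2 box and the CCAAT core of the Y box.

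*B2m*, chr2:122147536-122147685, plus strand: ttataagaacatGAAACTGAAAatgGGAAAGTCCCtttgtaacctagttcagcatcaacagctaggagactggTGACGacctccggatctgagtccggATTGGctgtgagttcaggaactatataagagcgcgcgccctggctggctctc
*H2-K1*, chr17:34000430-34000459, minus strand: tGGGGATTCCCcatctccacagTTTCACTT
*H2-D1*, chr17:35262922-35262951, plus strand: tGGGGATTCCCcatctcctcagTTTCACTT
*H2-K1*, chr17:34000372-34000401, minus strand: gtccggacactgtTGACGcgcagtcagctc
*H2-D1*, chr17:35262980-35263009, plus strand: gccgggacactgaTGACGcgctggcaggtc
*Tap1*, chr17:34187457-34187486, plus strand: gcccagagacaggTGACGacagagggtcct
*Tap1*, chr17:34187321-34187350, plus strand: ggggctcggctttCCAATcagcggctgcgc

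The heavy chain windows held the κB-like element and the shorter interferon form at the same spacing. Of the 8 genes with a window, 3 held the κB-like letters (*H2-K1*, *H2-D1* and *B2m*), against 4.79% of all 32851 windows. The same 3 genes held the shorter interferon form, found in 6.58% of windows, and *B2m* alone held the interferon core, found in 3.44%. TGACG was in 5 of the 8 (*H2-K1*, *H2-D1*, *B2m*, *Tap1* and *Psmb9*), against 20.8% of windows, and CCAAT was in these 5 and *Tapbp*, against 37.4%. The letters TTCNNNGAA, the core of an interferon-γ activated site, were found only in the *Psmb8* window among these genes, against 8.3% of all windows. *Tap1* and *Psmb9* are transcribed away from each other, and their RefSeq starts are separated by 225 bases (chr17:34187331-34187555), so both windows share the *Tap1* lines above. These are matches of letters, with no binding data behind them. The letters were chosen with the sequences in view, so the shares of all windows do not measure an enrichment in these genes.

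By the RefSeq annotation of GRCm38, 7 of the 10 genes lie on chromosome 17, in or beside the MHC. *H2-K1* spans chr17:33996012-34000619 on the minus strand, *Tapbp* chr17:33919478-33929290 on the plus strand and *H2-D1* chr17:35263094-35267497 on the plus strand. *Psmb9* (chr17:34182030-34187330, minus), *Tap1* (chr17:34187556-34197225, plus), *Psmb8* (chr17:34198195-34201454, plus) and *Tap2* (chr17:34204479-34216321, plus) follow each other directly. *B2m* is at chr2:122147687-122153082 on the plus strand. *Nlrc5* (chr8:94434335-94527272, plus) and *Psmb10* (chr8:105935728-105938392, minus) are on chromosome 8.

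Libraries held between 39079600 and 45504600 counts, and each of the 10 genes had between 1446 and 57435 counts in every library. *Eif3e*, the deleted gene, stood at 39.0% of control in cKO iGCBs, with no overlap between groups. The 10 B cell markers summed to between 5224 and 5445 CPM (counts scaled to a common library total) in cKO and between 5090 and 5507 in control. The 6 germinal center B cell markers summed to between 267 and 280 CPM in cKO and between 336 and 412 in control. The 16 fibroblast markers, which feeder cells would carry, summed to between 111 and 137 CPM in cKO and between 81.5 and 152 in control, with the lowest sum in control replicate 3 and with *Lum* and *Postn* at 0 throughout. Within that list *Col5a1* (4.79 to 6.15 CPM in cKO, 1.57 to 2.16 in control), *Fn1* (35.7 to 46.8 and 13.6 to 22.4) and *Fbn1* (139 to 207 counts in cKO, 0 in every control library) were higher in edgeR's test, *Lox* was lower, and the other tested genes did not pass. Sums of the myeloid list (8 genes) were between 5.05 and 6.44 CPM in cKO and between 1.79 and 2.96 in control, those of the NK cell list (6 genes) between 2.02 and 3.57 and between 6.68 and 10.1, and those of the plasma cell list (6 genes) between 646 and 788 and between 831 and 852. *Cd14*, *Clec7a*, *Ncr1* and *Nkg7* had no counts. The T cell list gave between 23.3 and 25.7 CPM in cKO and between 36.5 and 39.8 in control, with *Cd3e* at 0. Single genes carried the differences of the myeloid, NK cell and T cell lists, namely *Adgre1* (3.64 to 5.54 CPM in cKO, 0.620 to 2.02 in control), *Prf1* (1.80 to 2.89 and 6.46 to 9.49) and *Lck* (23.3 to 25.7 and 36.3 to 39.7). Under 1 CPM in every library were 7 of 8 myeloid, 5 of 6 NK cell and 6 of 7 T cell genes, and the part of these lists in the results was not tested. The plasma cell genes went in both directions, with *Sdc1* (302% of control) and *Irf4* (134%) higher and *Jchain* (6.24%), *Prdm1* (45.6%) and *Xbp1* (46.7%) lower. *Xist*, transcribed from the inactive X chromosome of females, had at least 53272 counts in cKO replicate 2 and control replicates 1 and 2 and at most 16 in the others.

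Presentation genes did not move as 1 block in cKO iGCBs. The regulator *Nlrc5* rose 1.72-fold, the transporter subunit *Tap1* 1.31-fold and the light chain *B2m* 1.16-fold, while the immunoproteasome subunit *Psmb9* fell to 83.4% of control. The heavy chains, *Tap2*, *Tapbp*, *Psmb8* and *Psmb10* did not pass the test. Thus 3 of 10 genes were higher and 1 was lower at an adjusted p under 0.05 in edgeR's quasi-likelihood test, where 24.1% of all 13296 tested genes were higher and 24.5% were lower. Only *Nlrc5* also passed a 1.5-fold cutoff, which 10.4% of tested genes passed upward and 10.6% downward. The median log2 fold change of the 10 genes was 0.10, against −0.00402 for all tested genes.

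**Figure D1:**
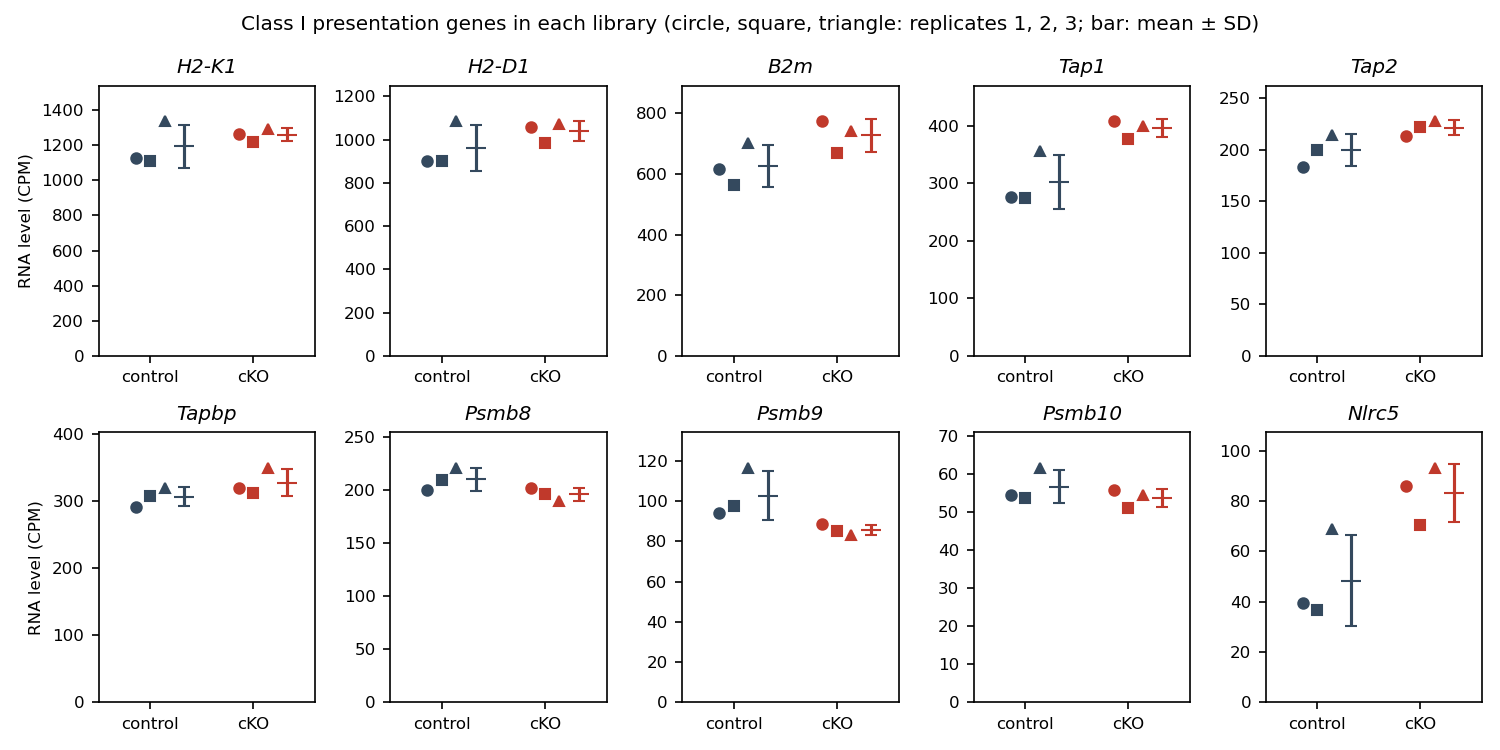
RNA level in CPM (y axes, from 0) of each gene in 3 control (dark) and 3 cKO (red) libraries, with symbols for replicates 1, 2 and 3 and a bar for the mean ± SD. *Tap1* and *Nlrc5* lay above every control library in all cKO libraries, *Psmb9* lay below, and the groups of the other 7 genes overlapped.

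*H2-K1* and *H2-D1* encode the heavy chains that hold the peptide. *H2-K1* was measured at 1266, 1221 and 1292 CPM in cKO replicates 1, 2 and 3 and at 1130, 1113 and 1337 CPM in the control replicates. *H2-D1* was at 1058, 986 and 1071 CPM in cKO and at 900.3, 901 and 1086 CPM in control. In both genes control replicate 3 was the highest of the 6 libraries, and the other control libraries were the lowest. The log2 fold change was 0.08 (95% interval −0.07 to 0.23, adjusted p = 0.366 from edgeR) for *H2-K1* and 0.11 (−0.05 to 0.27, adjusted p = 0.24) for *H2-D1*. Without control replicate 3 both passed, at 0.17 (adjusted p = 0.0138 from edgeR) and 0.21 (adjusted p = 0.00973). Heavy chain genes are near-identical over long stretches, and how shared reads were divided among them is not given in the sources used here. With all 32 heavy chain rows of the H2-K, D, L, Q, T and M families summed into 1, the log2 fold change was −0.01 (adjusted p = 0.929 from edgeR).

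*B2m*, the light chain shared by all class I molecules, was at 774, 668 and 742 CPM in cKO and at 615, 564 and 702 CPM in control. cKO replicate 2 lay below control replicate 3, so the groups overlapped. Means were 728 ± 54.3 CPM in cKO and 627 ± 69.7 CPM in control (SD, n = 3 each). The difference of 0.21 on the log2 scale (SE 0.081) had an adjusted p of 0.0499 in edgeR's test, at the edge of the threshold. The call was lost on leaving out cKO replicate 1 or 3 or control replicate 1 or 2, with adjusted p values between 0.117 and 0.203 in edgeR. It was also lost without a filter on low counts (adjusted p = 0.0785 from edgeR) and with the *Xist* level in the model (log2 fold change 0.12, adjusted p = 0.0867).

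*Nlrc5* encodes the activator of class I promoters. It was measured at 86.0, 70.6 and 93.2 CPM in cKO and at 39.3, 36.8 and 69.1 CPM in control. Every cKO library was above every control library, but cKO replicate 2 exceeded control replicate 3 only narrowly. The difference was 0.78 on the log2 scale (SE 0.208, 95% interval 0.32 to 1.25, adjusted p = 0.0104 from edgeR). It was higher in 3 of 3 cKO libraries, and leaving out 1 library at a time gave log2 fold changes between 0.61 and 1.13. The call was lost only without control replicate 1, with an adjusted p of 0.0519 in edgeR's test. Of the 10 genes, *Nlrc5* and *Tap1* had no overlap with cKO above control, a pattern seen in 29.2% of tested genes, and *Psmb9* had none with cKO below control, seen in 29.5%.

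The split by *Xist* bears on these values, because 2 of 3 control libraries and 1 of 3 cKO libraries carried it. Among libraries with *Xist*, cKO minus control was 0.89 for *Nlrc5*, 0.46 for *Tap1*, 0.18 for *B2m*, 0.12 for *H2-K1* and 0.13 for *H2-D1* on the log2 CPM scale. Among libraries without it, the differences were 0.37, 0.18, 0.11, −0.06 and −0.03 in the same order. *Psmb9* was lower in both, at −0.17 and −0.44. One side of each of these comparisons is a single library, and they carry no test. A fit with *Xist* as covariate gave a log2 fold change of 0.59 for *Nlrc5* (adjusted p = 0.00407 from edgeR) and 0.30 for *Tap1* (adjusted p = 0.00713).

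*Tap1* and *Tap2* encode the paired subunits of the peptide transporter. *Tap1* was at 408, 378 and 400.4 CPM in cKO and at 277, 274 and 356 CPM in control, with no overlap. The increase was 0.39 on the log2 scale (SE 0.0926, edgeR adjusted p = 0.00583), and it passed in all 6 fits that left out 1 library, with values between 0.31 and 0.52. *Tap2* was at 213, 222 and 227 CPM in cKO and at 183, 200 and 214 CPM in control. Its highest control library lay just above its lowest cKO library. The difference was 0.15 on the log2 scale (SE 0.0617, edgeR adjusted p = 0.0684), and without control replicate 3 it was 0.21 (adjusted p = 0.0204). DESeq2 called it, at 0.16 (adjusted p = 0.0431).

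*Tapbp* encodes tapasin, which bridges TAP and the empty heavy chain. It was at 320.3, 312 and 350 CPM in cKO and at 291, 308 and 320 CPM in control. The log2 fold change was 0.10 (95% interval −0.04 to 0.23, adjusted p = 0.211 from edgeR), and it did not pass in any fit that left out 1 library.

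*Psmb8*, *Psmb9* and *Psmb10* encode the interferon-inducible catalytic subunits LMP7, LMP2 and MECL-1. *Psmb8* was at 203, 196 and 190 CPM in cKO and at 200.1, 210 and 221 CPM in control. *Psmb9* was at 88.4, 85.4 and 83.4 CPM in cKO and at 94.3, 97.6 and 117 CPM in control. *Psmb10* was at 55.7, 51.1 and 54.5 CPM in cKO and at 54.6, 53.7 and 61.7 CPM in control. *Psmb9* alone was separated by group, and in each of the 3 genes control replicate 3 was the highest library.

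*Psmb9* differed by −0.26 on the log2 scale (SE 0.0791, edgeR adjusted p = 0.0193). Its call was lost without cKO replicate 2 (adjusted p = 0.0659 from edgeR) or cKO replicate 3 (0.055), and without control replicate 3 its log2 fold change was −0.16 (adjusted p = 0.0444). The log2 fold change of *Psmb8* was −0.10 (95% interval −0.22 to 0.02, adjusted p = 0.148 from edgeR) and that of *Psmb10* was −0.07 (−0.24 to 0.09, adjusted p = 0.441).

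The subunits that they replace were higher. *Psmb5*, *Psmb6* and *Psmb7*, which encode the catalytic β5, β1 and β2 subunits of the standard proteasome, all rose (24.1% of all tested genes were higher), with log2 fold changes of 0.28 (adjusted p = 0.00229 from edgeR), 0.28 (adjusted p = 0.00193) and 0.31 (adjusted p = 0.00235). The ratio of the inducible to the standard subunit within a library does not depend on library size, but a lower ratio follows in large part from these higher denominators. For *Psmb8*/*Psmb5*, the log2 ratio of counts was 0.86, 0.76 and 0.61 in cKO and 1.05, 1.11 and 1.20 in control. For *Psmb9*/*Psmb6* it was −0.25, −0.40 and −0.33 in cKO and 0.11, 0.15 and 0.36 in control.

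For *Psmb10*/*Psmb7* it was −1.53, −1.69 and −1.49 in cKO and −1.26, −1.14 and −1.15 in control. All cKO libraries were below all control libraries in each of the 3 ratios. The cKO ratio stood at 77.0% of control for *Psmb8*/*Psmb5*, 69.2% for *Psmb9*/*Psmb6* and 76.3% for *Psmb10*/*Psmb7*, and it was also lower within the libraries with and without *Xist*. Each gave p = 0.1 in a two-sided exact permutation test, the smallest that 3 libraries against 3 allow, and 0.125 after adjustment over the 5 ratios examined. These p values share the denominators' increase and are not independent of it.

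**Figure D2:**
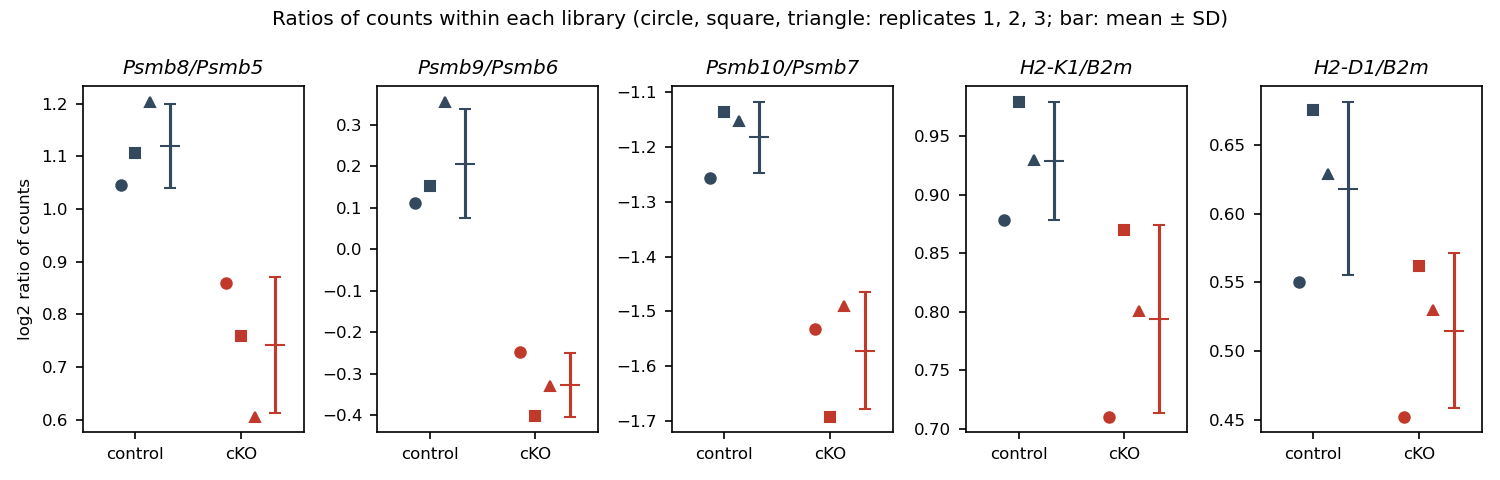
log2 ratio of counts within each library (y axes, each panel on a scale of its own) for 3 control (dark) and 3 cKO (red) libraries, with the mean ± SD beside them. The 3 proteasome ratios lay between −1.69 and 0.86 in cKO and between −1.26 and 1.20 in control, each separated by group, and *H2-D1*/*B2m* overlapped.

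The same was done for heavy and light chain. The mean log2 ratio of *H2-K1* to *B2m* was 0.79 ± 0.0801 in cKO and 0.93 ± 0.0506 in control (SD, n = 3 each), with cKO below control in every library (two-sided exact permutation p = 0.1, adjusted p = 0.125). The ratio of *H2-D1* to *B2m* was 0.51 ± 0.0565 in cKO and 0.62 ± 0.0632 in control, and overlapped (two-sided exact permutation p = 0.2, adjusted p = 0.2).

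Levels of different genes were compared as CPM per kilobase of transcript. In control iGCBs *H2-K1* (737 ± 77.2) and *B2m* (729 ± 81.0) were highest and could not be ordered, since their libraries overlapped (SD, n = 3). *H2-D1* followed at 458 ± 50.7. After a wide gap came *Psmb8* (129 ± 6.56), *Tapbp* (112 ± 5.46) and *Tap1* (103 ± 16.0), of which *Tapbp* and *Tap1* overlapped. *Psmb9* (76.1 ± 8.94), *Tap2* (57.9 ± 4.48) and *Psmb10* (43.2 ± 3.33) were each apart from the next, and *Nlrc5* was lowest at 6.97 ± 2.58. In cKO iGCBs the order had *B2m* first (846 ± 63.1) and *H2-K1* second (778 ± 22.4), whose libraries overlapped, and *Tap1* (134 ± 5.26) had a higher mean than *Psmb8* (121 ± 3.92), without overlap, and than *Tapbp* (120.4 ± 7.68), with overlap. *Nlrc5* was at 12.0 ± 1.66. The standard subunits *Psmb5*, *Psmb6* and *Psmb7* had control means of 108, 111 and 111 on this scale, between *Psmb8* and *Psmb9*.

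**Figure D3:**
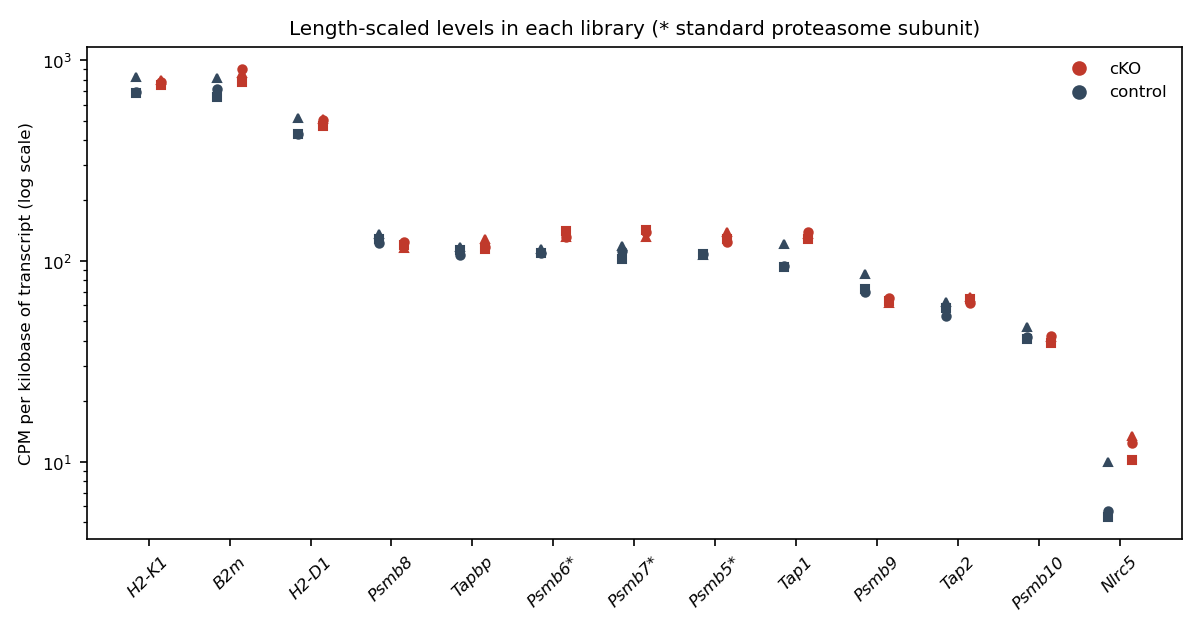
CPM per kilobase of transcript (y axis, log scale) in each control (dark) and cKO (red) library, genes ordered by control mean, with asterisks on the standard proteasome subunits. *H2-K1*, *B2m* and *H2-D1* stood between 428 and 899 in every library and *Nlrc5* between 5.30 and 13.4.

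Of the 10 genes, 8 had a single RefSeq transcript in the transcript table. *Tap1* was carried by NM_013683, which held between 94.4% and 97.5% of its counts, and this transcript rose with a log2 fold change of 0.41 (adjusted p = 0.0372 from edgeR over 18040 transcripts). That call was lost in 5 of the 6 fits that left out 1 library, all but the one without control replicate 3, with adjusted p values from 0.0745 to 0.115 in edgeR. NM_013683 was the only one of the 12 transcripts of these genes past the threshold, which 12.4% of tested transcripts passed upward and 12.7% downward. The single *Nlrc5* transcript, with the same counts as the gene, did not pass (log2 fold change 0.78, adjusted p = 0.0889 from edgeR). Of the 6 fits that left out 1 library, it passed only in the one without control replicate 3 (adjusted p = 0.0109). *Tapbp* was split between NM_009318, with 55.3% ± 3.92 of its counts in cKO and 53.4% ± 3.52 in control (SD, n = 3 each), and NM_001025313. The shares overlapped between groups.

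Around these genes, 82 other genes of the class I pathway were tested in 7 groups, of which 28 were higher and 18 lower in edgeR's test at an adjusted p under 0.05. Each count below is to be read against the 24.1% of all tested genes that were higher and the 24.5% that were lower. Among 20 tested class I and class I-like chains besides *H2-K1* and *H2-D1*, none was higher (24.1% of all genes) and 5 were lower (24.5% of all genes), with a median log2 fold change of −0.09, so the number lower was near the background. The nonclassical chain gene *H2-T23*, which encodes Qa-1, was at 209, 198 and 241 CPM in cKO and at 288, 313 and 338 CPM in control (log2 fold change −0.53, adjusted p = 0.000404 from edgeR). *H2-M3*, whose product presents formylated peptides, was at 31.8, 27.5 and 35.4 CPM in cKO and at 46.2, 54.0 and 54.6 CPM in control (log2 fold change −0.71, adjusted p = 0.000367). *H2-K2*, at 49.9% of control (adjusted p = 0.00132), *H2-T9* (log2 fold change −0.43, adjusted p = 0.0161) and the neonatal Fc receptor gene *Fcgrt* (−1.49, adjusted p = 0.0034), at no more than 2.55 CPM, were the others, in the same edgeR fit. *H2-T9* kept its call in 3 of the 6 fits that left out 1 library, and lost it without cKO replicate 2, cKO replicate 3 or control replicate 3. The H2-Q, H2-T and H2-K2 rows share sequence with each other, which leaves their single values uncertain.

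**Figure D4:**
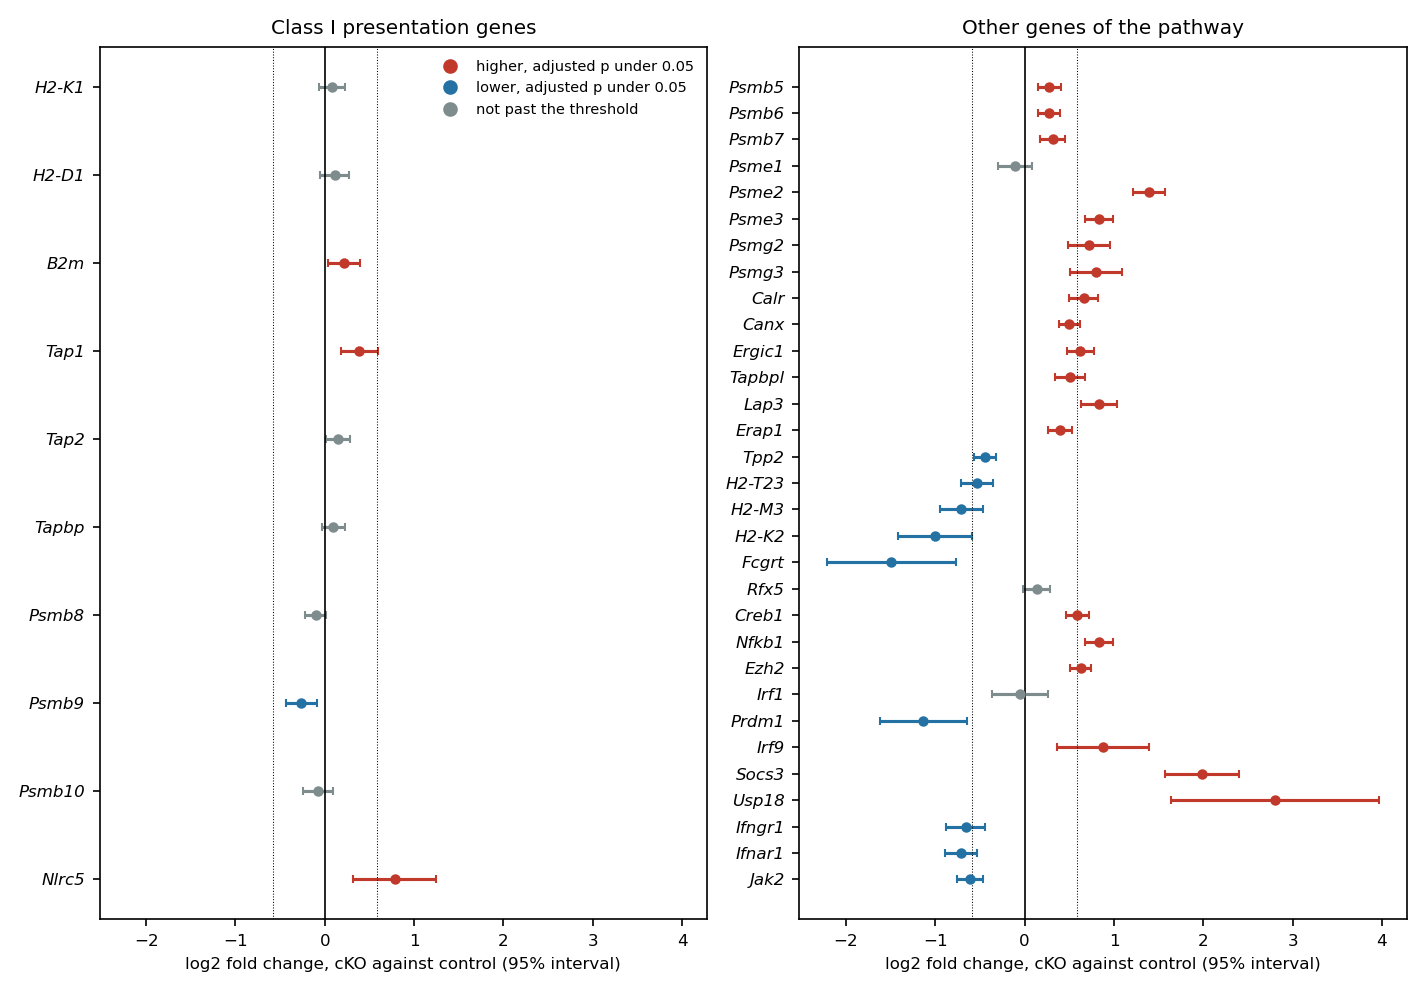
log2 fold change of cKO against control with its 95% interval (x axes) for the 10 presentation genes (left) and for other genes of the pathway (right), red for higher, blue for lower and grey for not past an adjusted p of 0.05, with dotted lines at 1.5-fold. Among the 10, *Nlrc5* lay highest at 0.78 and *Psmb9* lowest at −0.26, and the pathway genes shown ran from −1.49 (*Fcgrt*) to 2.81 (*Usp18*).

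In peptide loading and editing, 5 of 9 genes were higher (24.1% of all genes) and none lower (24.5%). These were the chaperone genes *Calr* (log2 fold change 0.66, adjusted p = 5.9e-05 from edgeR) and *Canx* (0.50, adjusted p = 4.56e-05), the glucosyltransferase *Uggt1*, *Ergic1* and the tapasin-like editor *Tapbpl* (0.51, adjusted p = 0.000288). *Ergic1* is not specific to class I loading, so the count covers more than that step. *Pdia3*, the ERp57 partner of tapasin, had a log2 fold change of 0.14 (adjusted p = 0.109 from edgeR). In peptide trimming, 4 of 8 genes were higher (24.1% of all genes), among them the aminopeptidases *Lap3* (0.83, adjusted p = 4.69e-05) and *Erap1* (0.40, adjusted p = 0.000482), and *Tpp2* (−0.45, adjusted p = 0.00012) and *Blmh* were lower (24.5% of all genes).

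Proteasome activators and assembly factors also moved in both directions. *Psme2* was at 191, 188 and 178 CPM in cKO and at 64.9, 66.7 and 80.3 CPM in control, a log2 fold change of 1.40 (adjusted p = 1.58e-06 from edgeR). *Psme1*, which encodes the other subunit of the same PA28 ring, was at 154, 159 and 159 CPM in cKO and at 165, 148 and 196 CPM in control (−0.11, adjusted p = 0.341). The assembly chaperones *Psmg2* (0.72, adjusted p = 0.000284) and *Psmg3* (0.80, adjusted p = 0.000584) rose, and *Pomp*, which helps to assemble both kinds of proteasome, fell (−0.25, adjusted p = 0.0178), all in edgeR's test. *Psme3*, which encodes the nuclear activator PA28γ, also rose (0.83, adjusted p = 1.01e-05 from edgeR). In all, 5 of these 9 genes were higher (24.1% of all genes) and 1 was lower (24.5%). *Pomp* kept its call in 3 of the 6 fits that left out 1 library, and lost it without cKO replicate 2, control replicate 1 or control replicate 3.

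Of 20 factors that act on class I promoters, 7 were higher (24.1% of all genes) and 4 lower (24.5%). *Rfx5*, the DNA-binding partner of NLRC5, had a log2 fold change of 0.13 (adjusted p = 0.122 from edgeR) and *Irf1* one of −0.05 (adjusted p = 0.795). *Creb1* (0.59), *Nfkb1* (0.83) and *Ezh2* (0.63), a subunit of the complex that can repress class I genes by histone methylation, rose with adjusted p values of at most 2.34e-05 in edgeR's test. Other RFX, CREB/ATF and NF-Y genes went both ways. *Nfyb* rose (0.42, adjusted p = 0.00151 from edgeR), while *Rfxank* (−0.27, adjusted p = 0.011) and *Atf1* (−0.18, adjusted p = 0.0219) fell. *Atf1* kept its call in 3 of the 6 fits that left out 1 library. *Rfxap*, *Nfya* and *Nfyc* did not pass. *Prdm1*, the repressor that drives plasma cell differentiation, fell by 1.13 on the log2 scale (adjusted p = 0.00161).

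In interferon receptor signalling, 5 of 14 genes were higher (24.1% of all genes) and 6 lower (24.5%). The receptor and kinase genes *Ifngr1* (−0.66), *Ifnar1* (−0.72), *Ifnar2*, *Jak1*, *Jak2* (−0.62) and *Tyk2* fell, with adjusted p values between 3.89e-05 and 0.0349 in edgeR. Of these, *Ifnar2* kept its call in 1 of the 6 fits that left out 1 library, the one without control replicate 3. Downstream of them, *Irf9*, which encodes an interferon-activated transcription factor, was at 54.1, 44.4 and 58.4 CPM in cKO and at 21.0, 22.6 and 41.9 CPM in control (log2 fold change 0.88, adjusted p = 0.00955 from edgeR). The feedback inhibitors *Socs1* (0.46), *Socs3* (1.98) and *Usp18* (2.81) rose as well, with adjusted p values of at most 0.0087 in edgeR's test.

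The genes also differed in how they varied from library to library. Likeness was measured as the root mean square difference of mean-centred log2 CPM over the 6 libraries, and smaller values are closer. *H2-K1* and *H2-D1* were the closest pair at 0.0234, *Tap2* was nearest to *Tapbp* at 0.0551, and *Psmb8* to *Psmb10* at 0.0569. *Nlrc5* stood apart, nearest to *Tap1* at 0.288 and farthest from *Psmb9* at 0.593. Among 8504 other genes with a mean of at least 10 CPM, *Irf9* was the most like *Nlrc5*, at 0.0843, followed by the Schlafen genes *Slfn8* (0.131) and *Slfn2* (0.136). The gene most like the mean of the 10 was the class I gene *H2-Q1*, at 0.0236, followed by *Zufsp* and *Grasp*. These are descriptions, and all 6 points of each gene come from the same libraries.

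**Figure D5:**
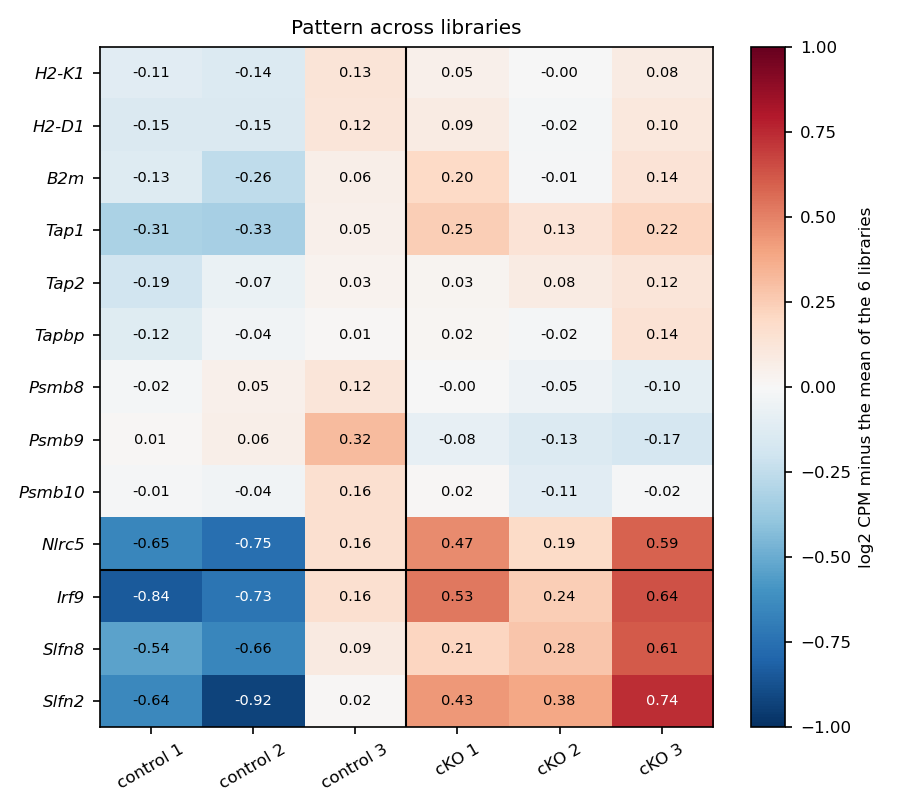
log2 CPM minus the mean of the 6 libraries (color and printed value) for the 10 presentation genes and, below the line, the 3 genes most like *Nlrc5*, with 1 column per library. Control replicate 3 was above the other control libraries in every gene shown, by 0.86 for *Nlrc5* and 0.09 for *Tapbp*.

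Control replicate 3 lay above the mean of the other control libraries in all 10 genes, by between 0.09 (*Tapbp*) and 0.86 (*Nlrc5*) on the log2 CPM scale. It also lacked *Xist* and had the lowest fibroblast marker sum, and the 2 cannot be told apart in this library. With the fibroblast marker level as a covariate, 6 of the 10 genes were higher and none lower in edgeR's test, where 22.3% of all tested genes were higher and 22.4% lower. *Nlrc5* then had a log2 fold change of 1.13 (adjusted p = 0.000339 from edgeR) and *Psmb9* one of −0.16 (adjusted p = 0.0921). The covariate was the mean log2 level of the marker list, which holds *Fbn1*, *Fn1* and *Col5a1*, genes higher in cKO. Centred on all libraries, it was −0.66 in control replicate 3 and between −0.03 and 0.31 in the others. It thus mainly marks that library, and leaving the library out gave 1.13 and −0.16 as well. The fit cannot tell fibroblast content from other traits of that library. RNA levels in bulk cultures do not tell fewer cells of a type from less RNA per cell.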

How the data were processed

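Gene and transcript tables of day 3 YFP+ iGCBs, with 3 cKO and 3 control libraries, were used, grouped by their labels. The authors trimmed reads, aligned them to mm10 with HISAT2, assembled them with StringTie and deposited expected counts per gene and per RefSeq transcript written by its prepDE script. Tool versions, annotation release and strand setting are not given in the sources used here. The deposited values were already whole and were tested as they stand. Totals ranged from 39079600 to 45504600 counts, which are StringTie estimates and not sequenced fragments.

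In R 4.3.3, edgeR 4.0.16 was run on all genes (filterByExpr with a minimum count of 10, TMM, quasi-likelihood test, no covariates), with Benjamini-Hochberg adjustment over 13296 of 24499 genes, and likewise over 18040 transcripts. Standard errors are the log2 fold change over the root of F. CPM used TMM library sizes. Ratios were tested by exact permutation. RefSeq transcripts were matched to GENCODE M21 for lengths, and promoter windows came from RefSeq (GRCm38.p6). The motif letters were chosen with the sequences in view. DESeq2 1.42.0 was an alternative.

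The 10 genes and all lists were chosen with earlier results of these data known. Named from the lists were genes past an adjusted p of 0.05 and 1.5-fold or that define a list, and the 3 genes most like *Nlrc5* and most like the mean of the 10. *Psme1*, *Irf1*, *Pdia3*, *H2-T9* and other list genes that miss at least 1 of these cutoffs were named after their values were seen. One list gene is counted but not reported singly here. On simulated counts with 200 of 13296 genes changed 2-fold, edgeR recovered 143 of 199 tested (71.9%), all in the right direction, and called 10 unchanged genes. This missed the limit of 80% first set for the check, which was then applied to changed genes with a mean of at least 100 counts, of which 142 of 156 (91.0%) were recovered.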

Additional observations from a re-analysis of the deposited data

How the results depend on the processing

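At the gene level, the increase of *Tap1* passed under every alternative run except the test against a 1.5-fold change. That of *Nlrc5* passed under every one except that test and the fit without control replicate 1. The count of presentation genes called was 3 higher and 1 lower in the main fit (24.1% and 24.5% of all tested genes). It was 4 and 1 in DESeq2, with *Tap2* added (21.7% and 21% of all tested genes). With *B2m* lost, it was 2 and 1 without a filter on low counts (18.1% and 18.4%) and with *Xist* as a covariate (22% and 22.1%). With the fibroblast marker level as a covariate it was 6 higher and 0 lower (22.3% and 22.4% of all tested genes), and in the test against 1.5-fold it was 0 and 0 (4.39% and 4.36% of all tested genes), where 7 of the other pathway genes were higher and 2 lower. Leaving out 1 library at a time gave between 1 and 6 genes higher and between 0 and 1 lower, where between 20.1% and 22.6% of all tested genes were higher and between 21% and 22.3% lower. With the class I heavy chain rows summed, *H2-K1* and *H2-D1* are replaced by 1 value, −0.00813. *Psme1* changed sign with the fibroblast level as a covariate (0.00302) and without control replicate 3 (0.0097), and *Irf1* with the fibroblast level (0.103), without cKO replicate 3 (0.0295) and without control replicate 3 (0.13), none past the threshold. Over the fits that left out 1 library, *Psme1* ranged from −0.205 to 0.0097 and *Irf1* from −0.187 to 0.13. The minor *Tap1* transcript NM_001161730 changed sign without cKO replicate 3 (0.0433) and without control replicate 3 (0.315), and the *Tapbp* transcript NM_001025313 without cKO replicate 1 (−0.0183) and control replicate 2 (−0.0212), none past the threshold, with ranges from −0.27 to 0.315 and from −0.0212 to 0.078 in those fits. DESeq2 also changed the scaling and the number of genes tested, and leaving out a library changed that number. The cause of these changes was not tested.

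Whether replicate numbers pair the samples was not settled. Deviations of same-numbered libraries correlated at 0.00851, 0.0839 and 0.133, and 3 of 6 libraries correlated best with their own number. The paper used paired tests for iGCB proliferation, death and surface levels. With the replicate block the count stayed at 3 higher and 1 lower, where 23.1% of all tested genes were higher and 23.8% lower. *Nlrc5* then had a log2 fold change of 0.83 (adjusted p = 0.000607 from edgeR) and *B2m* one of 0.22 (adjusted p = 0.0155). Leaving out immunoglobulin genes was not run, because none were found by symbol.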
